A study of Mus musculus with 87 samples.

Results

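The NF-κB pathway and its adhesion targets were followed here through 10 genes: the inhibitors Nfkbia and Tnfaip3, the transcription factor subunits Nfkb1, Nfkb2, Rela and Relb, the cytokines Tnf and Il1b, and the adhesion molecules Icam1 and Vcam1. They were chosen by gene symbol, and all 10 were found among the 48526 genes of the bulk table and the 48531 genes of the single-nucleus table. The nuclei came from the ventral midbrain of wildtype C57BL/6J mice of 6 to 12 months and both sexes, which received 40 ng of recombinant mouse IFN-γ in 400 nL of saline, or saline alone, by stereotactic injection on both sides. No group carried a transgene or a deletion. Nuclei sorted on the neuronal antigen NeuN into NeuN+ and NeuN- fractions were sequenced in 84 wells. Each fraction had 6 IFN-γ wells at each of 6, 24, 48 and 72 h, whereas saline was represented by 6 wells at 24 h and by 4 at the other times. Single nuclei enriched for NeuN+ nuclei were sequenced at 48 h from 1 saline and 2 IFN-γ mice. Each group pooled only a small number of animals, and the sources used here do not say which wells shared an animal, so that the p-values below measure the spread between wells.

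NF-κB dimers are held in the cytoplasm by inhibitors such as the product of Nfkbia, and receptors for TNF, IL-1 and microbial products release them through kinases that mark the inhibitor for degradation. Rela and Nfkb1 form the classical dimer, whereas Relb and Nfkb2 form the dimer of the alternative pathway. Nfkbia and Tnfaip3, which encodes a ubiquitin-editing enzyme, are induced by NF-κB and end its activity. Tnf and Il1b encode inflammatory cytokines that microglia release in the brain. Icam1 and Vcam1 encode surface proteins to which leukocyte integrins bind, and are best known from endothelium. γ-activated sites (GAS) are short sequences in the promoters of many genes that respond to IFN-γ.

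The promoter windows of the members are given first because the comparisons below follow genes of the NF-κB pathway after IFN-γ. The RefSeq windows of GRCm38.p6 held 300 bases from 250 before to 50 after a start site, and 10 windows belonged to 7 of the 10 members. The GAS consensus TTCNNNGAA was in the windows of 2 members, Icam1 and Nfkb2, and in 8.3% of all 32851 promoters. The κB consensus of 10 bases, searched on both strands, was in 5 windows of 3 members, Nfkb2, Nfkbia and Tnfaip3, and in 8.46% of all promoters. These are matches of letters in short windows, not binding sites, and a window without a match says only that these letters are not in it. The 250 bases before the start site are shown for 4 members, 5′ to 3′ on the strand of the gene, with matches in capitals. Icam1 (chr9:21015690-21015939, plus strand) has its GAS match 42 bases before the start. Nfkbia (chr12:55492648-55492897, minus strand) has a κB match 29 bases before the start. Tnfaip3 (chr10:19015411-19015660, minus strand) has κB matches 125 and 12 bases before it, and Tnf (chr17:35202008-35202257, minus strand) has neither.
Icam1: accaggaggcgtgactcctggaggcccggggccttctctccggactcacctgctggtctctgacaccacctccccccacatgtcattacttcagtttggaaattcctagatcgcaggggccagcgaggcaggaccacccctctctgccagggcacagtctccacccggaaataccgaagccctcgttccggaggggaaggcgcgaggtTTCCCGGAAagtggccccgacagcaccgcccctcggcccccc
Nfkbia: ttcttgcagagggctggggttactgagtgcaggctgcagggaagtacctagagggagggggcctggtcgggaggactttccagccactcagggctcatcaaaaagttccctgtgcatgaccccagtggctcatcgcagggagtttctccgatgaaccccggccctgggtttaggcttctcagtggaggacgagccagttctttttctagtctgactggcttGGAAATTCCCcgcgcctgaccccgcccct
Tnfaip3: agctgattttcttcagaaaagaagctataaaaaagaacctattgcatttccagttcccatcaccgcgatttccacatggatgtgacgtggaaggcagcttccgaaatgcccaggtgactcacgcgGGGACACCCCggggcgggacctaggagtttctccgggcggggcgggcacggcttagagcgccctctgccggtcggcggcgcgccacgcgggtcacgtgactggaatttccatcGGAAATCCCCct
Tnf: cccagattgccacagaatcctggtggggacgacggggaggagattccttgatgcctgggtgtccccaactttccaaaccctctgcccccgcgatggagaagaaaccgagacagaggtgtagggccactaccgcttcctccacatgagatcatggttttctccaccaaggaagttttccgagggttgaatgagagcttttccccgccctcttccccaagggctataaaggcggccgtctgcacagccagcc

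NeuN- wells held 20962 to 301445 unique molecular identifiers (UMIs, 1 for each captured transcript), and NeuN+ wells held 277113 to 1684374. Levels are given as CPM, the UMIs of a gene scaled to the total UMIs of its well, so that 1 UMI was worth more in a NeuN- well. The deposited labels call every well NeuN+, and the fraction was taken by well barcode from a supplementary table of the study. The neuronal gene Snap25 was at 18.2 to 119 CPM in the 42 NeuN- wells and at 595 to 841 CPM in the 42 NeuN+ wells, and the oligodendrocyte gene Mobp was at 422 to 1957 CPM against 27.2 to 118 CPM. The neuronal gene Rbfox3, which encodes NeuN, was also lower in NeuN- wells (median 4.71 CPM) than in NeuN+ wells (median 125 CPM), apart from 1 NeuN- saline well of 24 h at 129.9 CPM, whose Snap25 was at 43.3 CPM. That well held 0 UMIs of Vcam1 and Tnf. The first transcription factor of the IFN-γ response, Irf1, had a median of 397 CPM in NeuN- and 36.2 CPM in NeuN+ wells 6 h after IFN-γ, and 0 CPM in the saline wells of both fractions. The IFN-γ wells of 6 h and 24 h differed in sex-linked genes, and time cannot be told apart from the animals used at each time.

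The members were sparse. Over the 84 wells Nfkb1 gave 5932 UMIs, Rela 483, Nfkbia 303, Vcam1 230, Relb 189, Tnfaip3 81, Icam1 45, Nfkb2 30, Tnf 15 and Il1b 10. IFN-γ and saline wells of each fraction and time were compared with edgeR's quasi-likelihood test after its filter on low counts, and a gene was called at a log2 fold change beyond 1 with a p-value below 0.01 after Benjamini-Hochberg adjustment over all genes tested. Nfkb1 passed the filter at every time in both fractions, Rela passed it in NeuN+ wells at 24, 48 and 72 h, and the other 8 members passed it in none of these 8 comparisons. No member was called. Of all genes tested, 11.7%, 14.6%, 1.4% and 1.13% were called in NeuN- wells at 6, 24, 48 and 72 h, and 1.37%, 1.73%, 0.169% and 0.766% in NeuN+ wells. Nfkb1 at 6 h in NeuN- wells and Rela at 48 h in NeuN+ wells had an unadjusted p below 0.05, and DESeq2, run without edgeR's filter, called 1 member, Vcam1, in NeuN- wells at 24 h. The remaining members are therefore given by their values in each well, with the same edgeR test fitted without the filter. Without it, 2.38%, 3.32%, 0.303% and 0.257% of the genes tested were called in NeuN- wells at 6, 24, 48 and 72 h, and 0.722%, 1.14%, 0.157% and 0.428% in NeuN+ wells.

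Vcam1 (chr3:116109949-116129688, minus strand, GRCm38) was higher after IFN-γ in NeuN- wells at 6, 24 and 48 h. At 6 h it was at 0, 17.1, 0 and 9.55 CPM after saline, and the 6 IFN-γ wells ranged from 28.9 CPM through a median of 35.98 to 47.7 CPM. At 24 h the saline wells ranged from 0 through a median of 0 to 24.2 CPM, and the IFN-γ wells from 40.2 through 61.0 to 95.7 CPM. At 48 h the saline wells were at 0, 8.42, 9.83 and 0 CPM, and the IFN-γ wells ranged from 11.3 through 16.5 to 38.6 CPM. At each of these times every IFN-γ well lay above every saline well. The share of all genes whose wells separate in this way was not counted, so the separation is given as values only. At 72 h the saline wells were at 14.4, 14.9, 18.2 and 0 CPM and the IFN-γ wells ranged from 0 through 13.7 to 29.8 CPM, so that the groups overlapped.

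The mean of Vcam1 was thus 6.67 ± 8.30 CPM after saline and 36.2 ± 7.06 CPM after IFN-γ at 6 h (SD, n = 4 and 6), a ratio of 5.43. At 24 h the means were 7.47 ± 11.6 and 63.9 ± 22.3 CPM (SD, n = 6 and 6), a ratio of 8.56. At 48 h the ratio was 4.21 and at 72 h it was 1.07. These ratios rest on few molecules, with 3 against 25 UMIs at 6 h, 5 against 61 at 24 h and 2 against 13 at 48 h. Vcam1 rose at 24 h in edgeR's test without the filter, by a log2 fold change of 2.72 ± 0.54 (SE, adjusted p = 2.5e-05 over all genes). It kept its call with each of the 12 wells left out in turn, with log2 fold changes of 2.47 to 3.50. At 6 h the log2 fold change was 2.25 ± 0.74 (adjusted p = 0.047) and at 48 h it was 1.96 ± 0.93 (adjusted p = 0.63), and neither was called.

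**Figure D1:**
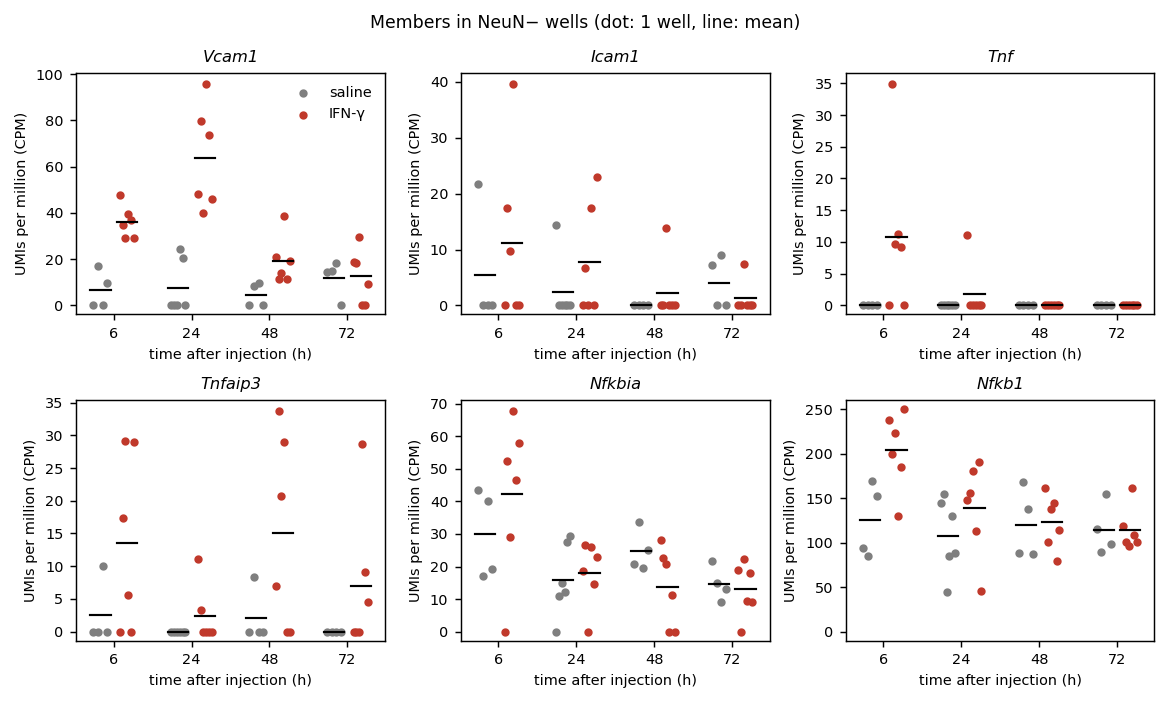
Levels of 6 members in NeuN- wells (CPM, vertical axes) by hours after injection, with saline wells in grey and IFN-γ wells in red. Each dot is 1 well and each line the mean of a group. Vcam1 separates the groups at 6, 24 and 48 h, whereas the IFN-γ and saline wells of the other 5 members overlap at every time. The share of all genes that separate in this way was not counted. Tnf is at 0 in all saline wells.

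The NeuN+ wells held less Vcam1. At 6 h the saline wells were at 0, 0, 1.26 and 2.15 CPM, and the IFN-γ wells ranged from 0.717 through 4.88 to 8.66 CPM. At 24 h the saline wells ranged from 0 through 0.297 to 2.41 CPM, and the IFN-γ wells from 0.721 through 3.84 to 5.53 CPM. The groups overlapped at both times, with the low IFN-γ well at the level of the saline wells. Without the filter the log2 fold changes were 2.10 ± 0.74 at 6 h (adjusted p = 0.097) and 2.18 ± 0.67 at 24 h (adjusted p = 0.027, edgeR), which did not pass the limit of 0.01. At 24 h the call depended on single wells, since leaving out saline replicate 6 gave 3.04 (adjusted p = 0.0055) and leaving out IFN-γ replicate 2 gave 2.47 (adjusted p = 0.0095). At 48 h the saline wells, at 0.614 to 7.96 CPM, and the IFN-γ wells, at 0 to 8.79 CPM, had log2 fold changes near 0 (0.02), as they did at 72 h (-0.07).

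Transcripts of other cell types moved in the same wells as Vcam1. The summed level of 6 astrocyte markers in NeuN- wells had medians of 924 CPM after saline and 1032 CPM after IFN-γ at 6 h, 934 and 2456 CPM at 24 h, 713 and 1324 CPM at 48 h, and 1573 and 1237 CPM at 72 h. At 24 h it ranged from 739 to 1749 CPM after saline and from 2131 to 3209 CPM after IFN-γ, and none of the 6 markers was at 0. In bulk nuclei, more cells of a type and more RNA of a gene per cell cannot be told apart. Relative to these markers, Vcam1 in NeuN- wells was at 7.14 UMIs per 1000 astrocyte-marker UMIs after saline and 33.2 after IFN-γ at 6 h, 8.14 and 26.4 at 24 h, 5.46 and 15.03 at 48 h, and 7.33 and 10.9 at 72 h. The ratio was thus higher after IFN-γ at each time, and least so at 72 h. In NeuN+ wells it was 4.23 and 25.5 at 6 h, 2.48 and 8.11 at 24 h, 14.9 and 10.4 at 48 h, and 4.60 and 3.48 at 72 h. The astrocyte markers had a median of 237 CPM in NeuN+ and 924 CPM in NeuN- saline wells of 6 h. Oligodendrocyte markers had medians of 248 and 6574 CPM in the same wells. Which nuclei gave the astrocyte-marker UMIs of NeuN+ wells was not tested, so the ratio there is not a level per astrocyte. The summed level of 5 endothelial markers had medians of 51.6 CPM after saline and 136 CPM after IFN-γ at 24 h, and ranges of 11.0 to 109 and 60.3 to 206 CPM, while the endothelial marker Cldn5 was at 0 in both groups. At 6 h these markers had medians of 46.4 and 50.5 CPM. The fraction shifted in other cell types too at 24 h, with 6 oligodendrocyte markers at 5872 to 7123 CPM after saline and 2009 to 2558 CPM after IFN-γ, and 4 markers of oligodendrocyte precursors at 327 to 1114 and 1840 to 2150 CPM. None of these markers was at 0, and neither pair of ranges overlapped. At 6 h the oligodendrocyte markers were at 5909 to 6920 and 3721 to 4358 CPM. The part of these shifts in the level of Vcam1 was not tested.

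**Figure D2:**
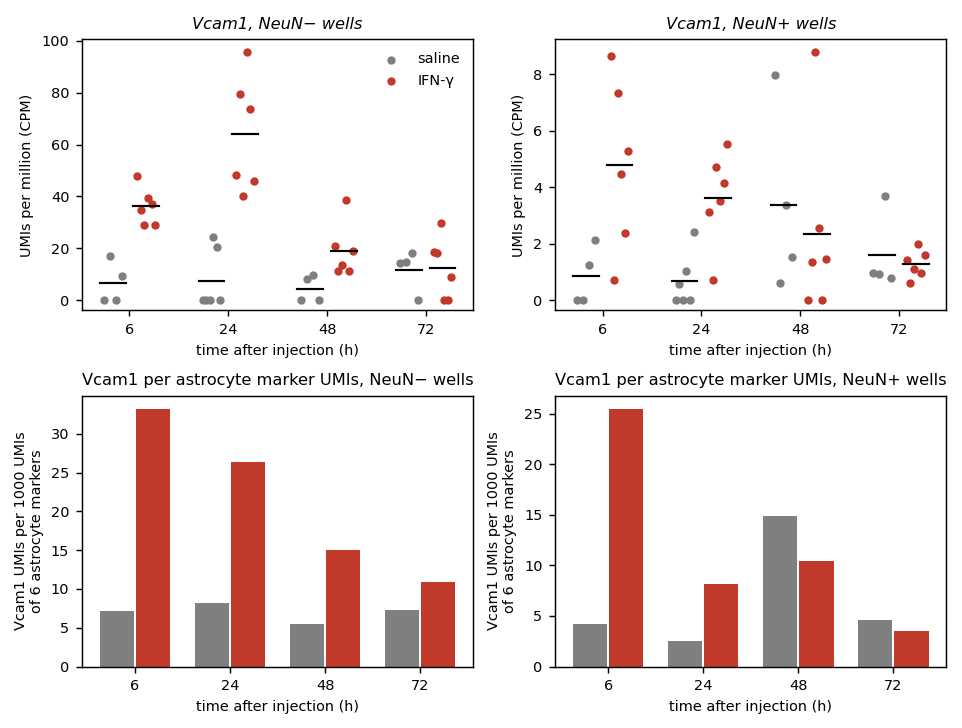
Vcam1 in NeuN- (left) and NeuN+ (right) wells by hours after injection. The upper panels show each well in CPM with group means as lines, and the lower bars show Vcam1 UMIs per 1000 UMIs of 6 astrocyte markers, each summed over the wells of a group. In NeuN- wells both measures are higher after IFN-γ at 6 and 24 h, and in NeuN+ wells the bars are at 4.23 and 25.5 at 6 h.

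Tnf (chr17:35199381-35202007, minus strand) was not found in any of the 36 saline wells. In NeuN- wells at 6 h the IFN-γ wells were at 0, 34.8, 9.70, 11.3, 9.28 and 0 CPM, with 9 UMIs in 4 of 6 wells. Against a floor of 3 UMIs over the saline wells of that time, this was at least 1.89-fold higher. At 24 h 1 NeuN- IFN-γ well held 3 UMIs (11.1 CPM), at 48 and 72 h no NeuN- well held any, and the NeuN+ IFN-γ wells held 3 UMIs in all. In the bulk wells most UMIs of Tnf were thus at 6 h, where it did not pass the limits (log2 fold change 3.68 ± 1.35, adjusted p = 0.10, edgeR without the filter). The single nuclei of 48 h, described below, held 58 UMIs of Tnf, so that the bulk counts give no time course.

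Tnfaip3 (chr10:19000910-19015657, minus strand) gave 1 UMI in the NeuN- saline wells of 6 h, at 0, 0, 10.0 and 0 CPM, and 12 UMIs in the IFN-γ wells, which ranged from 0 through 11.5 to 29.1 CPM. At 48 h the saline wells were at 0, 8.42, 0 and 0 CPM and the IFN-γ wells ranged from 0 through 13.9 to 33.8 CPM, with 1 against 10 UMIs. All saline wells were at 0 at 24 and 72 h, where the IFN-γ wells held 4 and 5 UMIs. The groups overlapped at every time because at least 2 IFN-γ wells had no UMI. The log2 fold changes without the filter were 2.45, 2.37, 2.34 and 2.93 at 6, 24, 48 and 72 h, with adjusted p of 0.23, 0.31, 0.61 and 0.64 (edgeR). In NeuN+ wells the means of Tnfaip3 lay between 0.716 and 1.43 CPM in all 8 groups.

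Icam1 (chr9:21015985-21028817, plus strand) was at 21.8, 0, 0 and 0 CPM in the NeuN- saline wells of 6 h, and ranged from 0 through 4.85 to 39.6 CPM in the IFN-γ wells, with 3 against 11 UMIs. At 24 h 1 of 6 saline wells was at 14.4 CPM and the others at 0, and the IFN-γ wells ranged from 0 through 3.32 to 23.0 CPM, with 1 against 7 UMIs. Both pairs of groups overlapped, and the log2 fold changes of 1.11 (adjusted p = 0.53) and 1.62 (adjusted p = 0.46, edgeR without the filter) were not called. The later NeuN- groups held 0 to 2 UMIs of Icam1, and the 8 NeuN+ groups 0 to 5.

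With the few saline wells of 1 time, a gene at 0 to 3 UMIs leaves little to compare with. When the IFN-γ wells were instead compared with the 18 saline wells of all times, without the filter and as a choice made after seeing the data, 3 members were called in NeuN- wells at 6 h. They were Tnf (log2 fold change 3.63, adjusted p = 3.4e-05), Tnfaip3 (3.06, adjusted p = 2.0e-04) and Vcam1 (1.99, adjusted p = 0.0017, edgeR), among 3.56% of all genes tested. Tnf had 0 UMIs in the 18 saline wells and was tested through the IFN-γ wells alone, so that its call adds no support to the counts. The 18 saline wells also mix the animals of all times. Icam1 (1.98, adjusted p = 0.034) and Nfkbia (1.15, adjusted p = 0.031) did not pass the limit of 0.01, and Nfkb1 (0.77, adjusted p = 5.3e-04) did not pass the limit on the fold. The same comparison called Vcam1 at 24 h (2.84, adjusted p = 3.2e-11) and Tnfaip3 at 48 h (2.90, adjusted p = 0.0060) in NeuN- wells, where it called 4.13% and 0.377% of genes. In NeuN+ wells it called Vcam1 at 6 h (1.85, adjusted p = 0.0069), among 1.03% of genes. It lowered other values, with Vcam1 at 1.15 (adjusted p = 0.65, from 1.96) in NeuN- wells at 48 h and at 1.34 (adjusted p = 0.15, from 2.18) in NeuN+ wells at 24 h, and Tnfaip3 at 1.33 (adjusted p = 0.37, from 2.37) and 1.82 (adjusted p = 0.54, from 2.93) in NeuN- wells at 24 and 72 h.

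Microglial transcripts moved the other way in these wells. The sum of 6 microglial markers in NeuN- wells had a median of 445 CPM after saline and 130 CPM after IFN-γ at 6 h, with ranges of 420 to 540 and 47.7 to 164 CPM, and none of the 6 was at 0. At 48 h the medians were 544 and 298 CPM. Per 1000 microglial-marker UMIs, Tnf at 6 h was at 0 after saline, where a floor of 3 counts stands at 14.2, and at 96.8 after IFN-γ. Icam1 was at 14.2 and 118 and Tnfaip3 at 4.72 and 129 on the same scale. The paper reports that some microglial lineage genes fell briefly soon after IFN-γ, so these ratios are not levels per microglial nucleus. A lower marker sum raises the ratio of any gene whose own level is unchanged. In the single nuclei, described below, 23 of 76 UMIs of Tnfaip3 lay in the cluster that scored highest for the microglial markers. The part of the lower marker level in these ratios was not tested.

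The inhibitor and subunit genes with more molecules moved less. Nfkb1 (chr3:135584655-135691547, minus strand) was at 94.3, 85.6, 170 and 153 CPM in the NeuN- saline wells of 6 h, and ranged from 130 through 212 to 251 CPM in the IFN-γ wells. The IFN-γ wells were higher on average, at 205 ± 43.8 against 126 ± 41.9 CPM (SD, n = 6 and 4), but the groups overlapped. The log2 fold change was 0.63 ± 0.24 (adjusted p = 0.044, edgeR), below the limit on the fold, and leaving out single wells gave 0.48 to 0.79 with adjusted p of 0.012 to 0.18. At 24, 48 and 72 h the log2 fold changes of Nfkb1 in NeuN- wells were 0.17, 0.14 and -0.03. In NeuN+ wells, where 332 to 895 UMIs of Nfkb1 were counted per group, they were 0.01, 0.05, -0.02 and 0.01, with SEs of 0.10, 0.08, 0.12 and 0.09.

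Nfkbia (chr12:55489410-55492647, minus strand) was at 43.5, 17.1, 40.0 and 19.1 CPM in the NeuN- saline wells of 6 h and ranged from 0 through 49.3 to 67.8 CPM in the IFN-γ wells. The means were 29.9 ± 13.8 and 42.2 ± 24.4 CPM (SD, n = 4 and 6), with overlapping wells and a log2 fold change of 0.68 (adjusted p = 0.47, edgeR without the filter). At 24, 48 and 72 h the means were 15.8, 24.8 and 14.7 CPM after saline and 18.2, 13.8 and 12.98 CPM after IFN-γ, and the wells overlapped each time. In NeuN+ wells the group means of Nfkbia lay between 2.51 and 7.48 CPM.

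Rela (chr19:5637483-5648130, plus strand) was at 15.9, 13.5, 9.25 and 6.16 CPM in the NeuN+ saline wells of 48 h and ranged from 0 through 5.78 to 9.65 CPM in the IFN-γ wells. The groups overlapped, and the log2 fold change of -0.77 ± 0.36 did not pass adjustment (adjusted p = 0.38, edgeR). At 24 and 72 h it was 0.20 and -0.07. Relb (chr7:19606217-19629438, minus strand) had NeuN- means of 11.2, 13.3, 11.4 and 5.52 CPM after saline and 14.7, 6.24, 10.5 and 11.7 CPM after IFN-γ at 6, 24, 48 and 72 h, with no constant direction. In NeuN+ wells at 24 h Relb ranged from 1.02 through 2.45 to 3.56 CPM after saline and from 2.16 through 4.42 to 5.53 CPM after IFN-γ, which overlapped (log2 fold change 0.76, adjusted p = 0.53, edgeR without the filter). Nfkb2 (chr19:46304320-46312385, plus strand) gave 30 UMIs, of which 26 were in NeuN+ wells, and Il1b (chr2:129364570-129371139, minus strand) gave 10 UMIs in 9 wells. Neither could be compared at this depth.

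The difference of the IFN-γ effect between the fractions was tested at each time as an interaction, in which 2.53%, 4.22%, 0.128% and 0.347% of all genes tested were called at 6, 24, 48 and 72 h. No member was called. Nfkb1 at 6 h had an interaction of -0.67 ± 0.25 on the log2 scale (NeuN+ less NeuN-, adjusted p = 0.089, edgeR), and was the only one of the members that passed the filter at an unadjusted p below 0.05. Nfkbia at 6 h was at -0.76 ± 0.64 (adjusted p = 0.54). Vcam1 passed the filter at 24 h, where its interaction was -0.68 ± 1.79 (adjusted p = 0.89, edgeR). DESeq2 gave -0.35 ± 1.01. In both the error exceeded the value, so that the log2 fold changes of Vcam1 in the fractions were not told apart. DESeq2 called no member for any interaction. The change of the effect from 6 h to 24 h was tested in each fraction, with 6.16% of genes called in NeuN- and 0.632% in NeuN+ wells, and again no member was called, by edgeR or by DESeq2, with none of those that passed the filter at an unadjusted p below 0.05. The effect on Nfkb1 changed by -0.40 ± 0.38 in NeuN- and by 0.03 ± 0.13 in NeuN+ wells. Without the filter, Vcam1 changed by 0.52 ± 1.28 in NeuN- wells.

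Without IFN-γ, 4 members were lower in NeuN+ than in NeuN- wells when low counts were not filtered out. Of all 27444 genes tested in this way, 1911 were called lower and 20.6% in either direction. The other members were not called. Over the 18 saline wells of each fraction, Nfkbia was at 20.7 ± 11.0 CPM in NeuN- and 4.33 ± 3.45 CPM in NeuN+ wells (mean ± SD). Relb was at 10.7 ± 12.8 and 2.49 ± 1.26 CPM, Vcam1 at 7.62 ± 8.66 and 1.52 ± 1.96 CPM, and Icam1 at 2.91 ± 6.24 and 0.193 ± 0.487 CPM. The levels of Icam1 rest on 6 UMIs in 4 NeuN- wells and 5 UMIs in 3 NeuN+ wells. Each of these 4 had a higher mean in NeuN- wells, with SDs close to or above the mean for Relb, Vcam1 and Icam1. Nfkb1 was at 116 ± 36.2 and 112 ± 18.9 CPM and Rela at 10.6 ± 10.3 and 9.59 ± 3.61 CPM, so that both fractions lay within 1 SD of each other. Tnf was at 0 in both.

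Nfkb1 passed the filter in this comparison, at a log2 ratio of NeuN+ to NeuN- of -0.02 ± 0.11, and was not called, while 40.7% of all genes tested were called. Without the filter 20.6% of all genes were called in either direction, with 1911 of 27444 lower in NeuN+ wells and 3733 higher. Of the members, 4 were called lower in NeuN+ wells. They were Nfkbia (-1.95 ± 0.31, adjusted p = 2.5e-09), Vcam1 (-2.08 ± 0.48, adjusted p = 7.4e-05), Relb (-1.56 ± 0.41, adjusted p = 7.0e-04) and Icam1 (-2.36 ± 0.70, adjusted p = 0.0038). DESeq2, also without the filter, called Nfkbia, Relb and Vcam1 but not Icam1 (-3.11, adjusted p = 0.11). The median log2 ratio of all genes was 0.39 without the filter and 0.04 with it, and Nfkb1 was at 0.31 without it, so that a ratio near 0 has no sign of its own here.

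**Figure D3:**
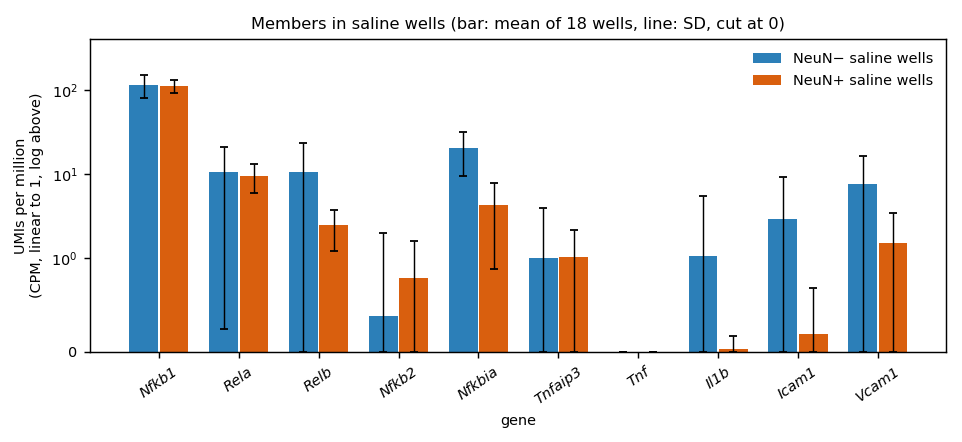
Level of the 10 members in saline wells (CPM, symmetric log axis, linear up to 1) in the NeuN- and NeuN+ fraction. Bars are means of 18 wells and error bars the SD, cut at 0. Nfkbia, Relb, Icam1 and Vcam1 have higher bars in NeuN- wells, and Nfkb1 and Rela have similar bars in both.

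The single nuclei showed which of the classes kept in the table held each member at 48 h. The authors had left out rare populations, such as mural cells and T cells, before they retained 4699 nuclei, the number found here. No vascular class was among those named, so the shares below do not cover vascular cells as a class. After clustering without the members and the other pathway genes, the 4699 nuclei fell into oligodendrocyte-like, astrocyte-like, VGLUT2 neuron-like, GABA neuron-like and dopamine neuron-like classes, named by fixed markers, apart from 225 nuclei of cluster 8 and the 134 of cluster 12. Cluster 12 (31 saline, 49 and 54 IFN-γ nuclei) was led by Inpp5d, Ly86 and Fyb. All 6 microglial markers were detected in it, and the microglial list scored highest of the marker lists, with a lead of 1.39 in z score. The paper retained 134 microglia, the number of nuclei in cluster 12, but whether they are the same nuclei was not checked. The cluster was left without a name under a fixed rule. That rule asked for a marker among the 10 leading genes or for depth. The median depth had to be at least 1/3 of that of all nuclei of the same mice. None of the markers was among its leading genes, and its median was 3416 UMIs per nucleus, against a median of 11767 for the mice of its nuclei. Oligodendrocyte-like cluster 1, at 3577 UMIs, also had no marker among its leading genes and was named because most of its nuclei came from the mouse with a median of 9404.5 UMIs. All-nuclei medians are set largely by the deeper neuron-like nuclei. No barcode was shared between the 3 libraries. Levels are UMIs summed over the nuclei of a class, given as CPM of that class and mouse, with exact 95% Poisson intervals that cover counting error only. The 2 IFN-γ mice were compared with the 1 saline mouse by edgeR on these sums, and a gene was called at an adjusted p below 0.01 with log2 ratios beyond 3 in the fit and in each IFN-γ mouse. With 1 saline mouse, its spread was taken from the IFN-γ mice.

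UMIs of Tnf were counted in cluster 12 alone. All 58 UMIs lay there, in a cluster of 2.85% of the nuclei and 0.83% of the UMIs, and 0 of the other 4565 nuclei held one. With a floor of 3 counts this allows up to 0.0657% of nuclei with a UMI, which at their depth does not limit the share of nuclei that express the gene. The saline mouse had 0 UMIs (0 CPM, interval up to 43.9), and the IFN-γ mice had 26 and 32 UMIs, at 133 CPM (86.7 to 194) and 138 CPM (94.2 to 194). Both IFN-γ mice lay above the interval of the saline mouse, which rests on 31 nuclei. Of the nuclei of cluster 12, 0 of 31, 10 of 49 and 11 of 54 held a Tnf UMI. Tnf passed the minimum of 10 UMIs through the IFN-γ mice alone, so that its call (log2 fold change 7.54 ± 1.75, adjusted p = 0.0037, edgeR) describes these 3 libraries and adds no support to the counts. With a floor of 3 UMIs in the saline mouse Tnf was at least 3.72-fold and 3.86-fold higher. DESeq2 gave 5.93 with no adjusted p, and so no call. In cluster 12, 0.808% of all genes tested were called, and Tnf was the only one of the 7 members tested there.

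Il1b, with 5 UMIs, was likewise found in cluster 12 alone, with 0, 3 and 2 UMIs in the saline and IFN-γ mice. Icam1 had 55 of its 62 UMIs in cluster 12. Unlike Tnf it was present there in the saline mouse, at 95.3 CPM (41.1 to 188), and at 143 CPM (94.98 to 207) and 81.8 CPM (49.2 to 128) in the IFN-γ mice, with overlapping intervals and a log2 fold change of 0.21 ± 0.62 (adjusted p = 0.94, edgeR). Tnfaip3 had 23 of 76 UMIs in cluster 12, at 23.8, 76.6 and 25.8 CPM, with overlapping intervals in all 3 mice (log2 fold change 1.03, adjusted p = 0.73, edgeR).

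Among the classes found here, which hold no vascular class, Vcam1 was held mostly by astrocyte-like nuclei (cluster 10). These had 72 of its 90 UMIs, or 80%, while making up 4.11% of the nuclei. It was at 27.5 CPM (5.67 to 80.3) in the saline mouse and at 71.1 CPM (52.0 to 94.8) and 98.8 CPM (62.7 to 148) in the IFN-γ mice. Both IFN-γ mice were higher, but their intervals overlapped that of the 21 saline nuclei with their 3 UMIs. The log2 fold change was 1.57 ± 0.73 (adjusted p = 0.64, edgeR) and was not called, as for the other 3 members tested in this class, in which 0.116% of genes were called. A UMI was present in 3 of 21, 36 of 135 and 16 of 37 astrocyte-like nuclei, at medians of 5077, 4503 and 6012 UMIs per nucleus, and in 1 of 1241 oligodendrocyte-like nuclei. In cluster 12 Vcam1 was at 11.9, 10.2 and 12.9 CPM, and in the neuron-like classes at 0 to 0.709 CPM.

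UMIs of Nfkb1 were counted in every class, at 96.3 to 97.1 CPM over all nuclei of a mouse. The level was highest in cluster 12, at 643 CPM (483 to 839) in the saline mouse and 388 CPM (306 to 486) and 499 CPM (413 to 599) in the IFN-γ mice. Astrocyte-like nuclei followed at 128, 212 and 120 CPM, then the neuron-like classes at 86.1 to 103 CPM and oligodendrocyte-like nuclei at 64.1 to 76.3 CPM. No class known to lack Nfkb1 was at hand to set the level of free RNA, so the low levels are not read as expression. The intervals of cluster 12 did not overlap those of any other class, whereas those of the neuron-like classes overlapped each other. IFN-γ and saline did not differ beyond their error in cluster 12 (log2 fold change -0.55 ± 0.33, adjusted p = 0.43, edgeR). Nfkbia was at 11.9, 45.9 and 56.0 CPM in cluster 12 (log2 fold change 2.02 ± 1.197, adjusted p = 0.41) and at 35.996, 23.0 and 18.7 CPM in oligodendrocyte-like nuclei (-0.69 ± 0.37, adjusted p = 0.48), which held 114 of its 299 UMIs. In the neuron-like classes it stayed at or below 3.77 CPM. Relb was at 59.5, 61.3 and 38.7 CPM in cluster 12 and at most 7.78 CPM in any other class. Rela was at 47.6, 30.6 and 51.6 CPM in cluster 12, and at 0, 20.1 and 21.5 CPM in astrocyte-like nuclei, where the saline mouse had no UMI (adjusted p = 0.67, edgeR).

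No member was called in the other classes. Of 4 members tested in oligodendrocyte-like, 5 in VGLUT2 neuron-like, 5 in GABA neuron-like and 3 in dopamine neuron-like nuclei, none had an unadjusted edgeR p below 0.05, and DESeq2 called none. The shares of all genes called there were 0.593%, 0.0519%, 0.00538% and 0.0315%. Oligodendrocyte-like clusters 1, 4 and 9 were not filled alike by the mice, since cluster 1 held 2 saline nuclei among 581. GABA neuron-like cluster 22 held 47 nuclei, all from IFN-γ mouse 1.

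**Figure D4:**
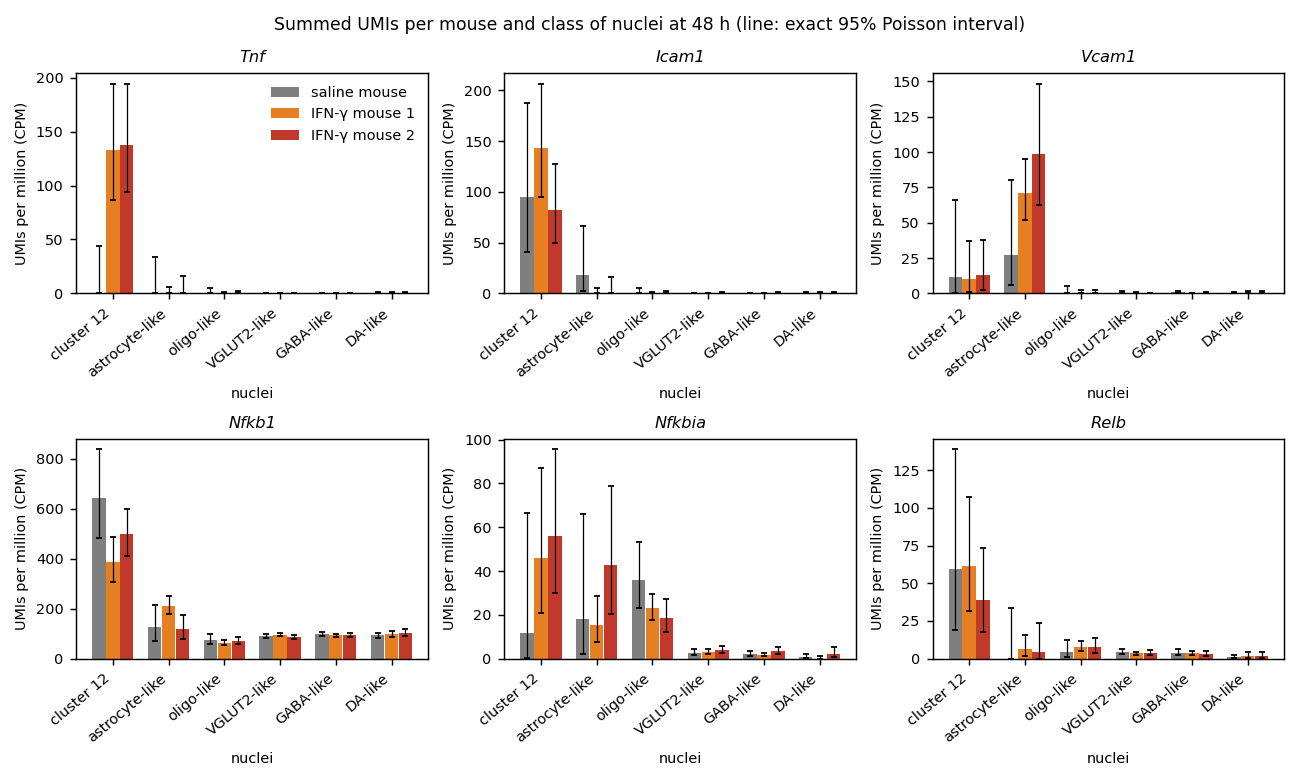
Level of 6 members in the single nuclei at 48 h, summed per class and mouse (CPM), with a grey bar for the saline mouse and orange and red bars for the IFN-γ mice. Lines are exact 95% Poisson intervals, which cover counting error only. Tnf and Icam1 are highest in cluster 12, Vcam1 in astrocyte-like nuclei, and Tnf is at 0 in the saline mouse.

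The other 85 genes of the pathway, grouped as receptors and adaptors, kinases, inhibitors and further subunits, targets, and adhesion genes, were tested in the same fits. In NeuN- wells at 6 h 6 of 17 genes tested rose and none fell, beside 11.7% of all genes called. Of all 2660 genes tested, 209 were called higher and 103 lower. The 6 were the targets Irf1 (log2 fold change 6.88 ± 0.43, adjusted p = 9.4e-16, edgeR), Cxcl10 (5.50 ± 0.56, adjusted p = 5.5e-10), Csf1 and Cflar, and the adaptors Ripk1 (2.47 ± 0.33, adjusted p = 1.9e-07) and Traf6. Irf1 also served above to check the treatment, and the paper reports Cxcl10 induced in neurons and glia, so both rises were known beforehand. The lists were chosen with earlier results of these data known, so these counts are given as description only. Irf1 encodes a transcription factor, Cxcl10 a chemokine for T cells, and Ripk1 a kinase bound to TNF receptors. In NeuN+ wells at 6 h 4 of 27 rose, beside 1.37% of all genes called and 98 of 9033 called higher. The 4 were Cxcl10 (6.53 ± 0.86), Irf1 (6.24 ± 0.51), Tlr3 (3.002 ± 0.49), a receptor for double-stranded RNA, and Ripk1 (1.44 ± 0.24). Irf1, Cxcl10 and Ripk1 thus rose in both fractions at 6 h. Ripk1 was placed with the receptors and adaptors, and of the list of kinases, which held the IκB kinases and those that act on them, none of 5 tested in NeuN- and 7 in NeuN+ wells was called at 6 h.

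At 24 h Irf1 rose in both fractions, by 6.25 ± 0.62 in NeuN- wells, where it was the 1 of 8 genes tested that was called, beside 14.6% of all genes, and by 5.94 ± 0.37 in NeuN+ wells, where Cflar (1.01 ± 0.26), an inhibitor of cell death, was the other of 2 of 29, beside 1.73% of all genes. None of 10 genes in NeuN- and 30 in NeuN+ wells was called at 48 h. At 72 h none of 12 was called in NeuN- wells. In NeuN+ wells 1 of 25 was called, beside 0.766% of all genes. It was Itga4 (-1.11 ± 0.27, adjusted p = 0.0073, edgeR), a subunit of the integrin that binds the product of Vcam1. In the same wells 3 VGLUT2 neuron markers were at 2038 to 2176 CPM after saline and 1418 to 1536 CPM after IFN-γ, 5 dopamine neuron markers at 102 to 136 and 244 to 301 CPM, and 6 oligodendrocyte markers at 279 to 320 and 493 to 574 CPM, with none at 0, and their part in the value of Itga4 was not tested. None of the 22 to 27 genes tested per time was called for the interaction of fraction and IFN-γ. From 6 h to 24 h the effect on the adhesion gene Alcam changed by 1.54 ± 0.20 in NeuN- wells (adjusted p = 3.2e-07), 1 of 17 genes tested and close to the 6.16% of all genes, and none of 35 was called in NeuN+ wells. In saline wells 7 of 19 genes tested were lower in NeuN+ than NeuN- wells, with Mcam (-4.80 ± 0.30), Csf1 (-3.15 ± 0.23) and Cflar (-2.97 ± 0.23) changed most, and 2 were higher, Traf3 (2.24 ± 0.15) and Sod2 (1.28 ± 0.22). Over all 5699 genes tested there, 1018 were called lower in NeuN+ wells and 1302 higher. Taken in either direction, where 40.7% of all genes were called, the pathway genes were close to the background. By direction more of them were lower than higher, unlike all genes, and this difference was not tested.

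**Figure D5:**
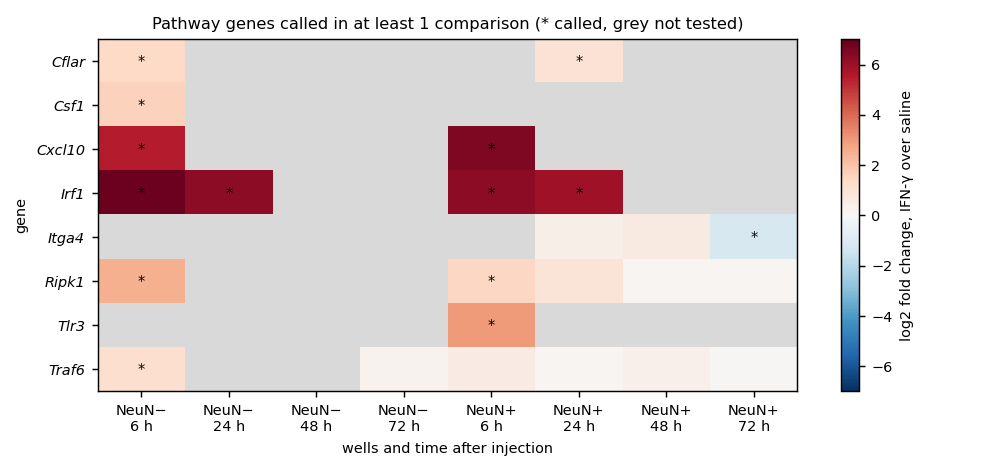
Log2 fold change after IFN-γ (edgeR, colour scale) of the 8 pathway genes called in at least 1 comparison of IFN-γ with saline, by fraction and hours after injection. Asterisks mark called genes and grey cells genes that were not tested. Irf1, Cxcl10 and Ripk1 are called in both fractions at 6 h.

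In the nuclei at 48 h, the pathway genes called in oligodendrocyte-like nuclei were Irf1 (log2 fold change 9.56 ± 1.09) and the stress gene Gadd45b (7.50 ± 1.83). With 0.5 added to each count, log2 ratios to the saline mouse were 6.19 and 6.54 in the IFN-γ mice for Irf1. For Gadd45b they were 3.53 and 4.97. In cluster 12, where Tnf was called, Cxcl10 (7.49 ± 1.85) and the hyaluronan receptor Cd44 (7.33 ± 1.82) were called. Their log2 ratios, taken in the same way, were 3.30 and 5.10 for Cxcl10 and 4.51 and 4.15 for Cd44. The folds of the fit thus lay above those of either mouse, and they rest on 1 saline mouse. These calls describe the 3 libraries and add no support for a rise. None of 33 in astrocyte-like, 59 in VGLUT2 neuron-like, 58 in GABA neuron-like and 46 in dopamine neuron-like nuclei was called.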

How the data were processed

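The bulk table was deposited by the authors as UMI counts per gene and well, made with STAR against GRCm38 and Gencode vM10, with UMIs collapsed by the authors. The single-nucleus counts were deposited after low-quality nuclei, doublets and rare populations such as mural cells and T cells had been removed, with intronic reads counted. The unit of both tables was raw counts, and CPM were computed from them. Wells were grouped by treatment and time from the labels and by NeuN fraction from a supplementary table of the study. Counts were tested with edgeR 4.0.16 (R 4.3.3, filterByExpr, TMM, quasi-likelihood, Benjamini-Hochberg) for each fraction and time, with DESeq2 1.42.0, RLE scaling, no filter, saline wells of all times, 1 fit over all wells and each well left out as alternatives. The SE given with an edgeR log2 fold change is the size of that change divided by the square root of its F statistic. It was not taken from the model itself. The fits were tested on simulated data. Nuclei were clustered on 2000 variable genes, 30 principal components and 15 neighbours (Leiden resolution 1; leidenalg 0.10.2), without the members and pathway genes, and a lead of 0.25 in marker z score, set after seeing the data, was required for a name. Genes with at least 10 summed UMIs were tested per class. The members and lists were chosen with earlier results of these data known. The pathway genes named were, per comparison, the 3 called with the largest change in each direction and those called in both fractions at 1 time, and further called genes were added after their values were seen. UMI totals limit the precision, and intervals and floors of 3 counts cover counting error only.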

Additional observations from a re-analysis of the deposited data

Results flagged for a closer look

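Within groups of 4 or 6 wells, a well was singled out when its gap to the nearest other well was large against the range of its group (Dixon's 95% critical value). Of 131 groups of a member's wells, 32 had such a well, and 24 of these groups held under 5 UMIs. Chance gives about 1 in 20 groups. The other 8 are given as values. In IFN-γ wells of the NeuN- fraction these were Tnf at 34.8 CPM in replicate 2 at 6 h, Vcam1 at 38.6 CPM in replicate 4 at 48 h, and Nfkb1 at 162 CPM and Tnfaip3 at 28.6 CPM, both in replicate 4 at 72 h. In IFN-γ wells of the NeuN+ fraction at 48 h they were Vcam1 at 8.79 CPM and Nfkb2 at 2.64 CPM, both in replicate 3, and Nfkb1 at 129.9 CPM in replicate 5. In saline wells of the NeuN+ fraction it was Vcam1 at 3.67 CPM in replicate 3 at 72 h.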

How the results depend on the processing

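No member was called in the bulk comparisons after the filter on low counts, and this count moved to 1 in NeuN- wells at 24 h (Vcam1) with DESeq2, with no filter, with 1 fit over all wells, and with the saline wells of all times and no filter. It moved to 1 in NeuN- wells at 6 h (Nfkb1) with an adjusted p of 0.05 and no limit on the fold, and, in the comparison with saline wells of all times and no filter that was added after seeing the data, to 3 in NeuN- wells at 6 h, 1 in NeuN- wells at 48 h and 1 in NeuN+ wells at 6 h. Between the fractions in saline wells it moved to 3 with DESeq2 and 4 with no filter. In the nuclei the count of 1 member in cluster 12 went to 0 with DESeq2. Leaving out single wells left every bulk count at 0. The log2 ratio of Nfkb1 between NeuN+ and NeuN- saline wells was -0.023 with the filter and reversed to 0.31 with no filter, 0.09 with RLE scaling and 0.10 with DESeq2. DESeq2 was run without edgeR's filter, so its counts in the bulk wells changed the tool and the filter together. The causes of the other moves were not tested. No paired analysis was possible because the replicate numbers of the wells were given in accession order and do not tie wells of different groups to one animal. At 20962 to 301445 UMIs per NeuN- well, Nfkb2, Tnfaip3, Tnf, Il1b and Icam1 gave 0 to 3 UMIs in each NeuN- saline group, which limits what could be detected.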
